A study of Mus musculus with 10 samples.

Results

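Ezrin, moesin and radixin (the ERM proteins, encoded by Ezr, Msn and Rdx) and merlin (encoded by Nf2) were followed as mRNA in K7M2 mouse osteosarcoma cells and in 4 lines made from them. These 4 genes were taken by name from the 41743 gene names of each deposited file, and all 4 were among the 12595 genes with enough counts to be tested. The 10 libraries of poly-A RNA form 5 groups of 2. Parental K7M2 is labelled wild type at the ezrin locus. The other groups are K7M2 cells labelled Ezrin -/- after CRISPR/Cas9 editing, stably transfected with an empty vector (labelled mock), with wild-type ezrin, with ezrin T567A or with ezrin T567D. T567A replaces the regulatory threonine of ezrin by alanine, which cannot be phosphorylated, and T567D replaces it by aspartate, which mimics phosphorylation. The edit is thus shared by the 4 derived lines and absent from the parental cells, and the derived lines share the tag col3 in their titles. There is 1 stable line per construct, so the construct and the line cannot be told apart, and the sources used here give neither the promoter nor the species of the ezrin cDNA. Whether the 2 libraries of a line stem from separate cultures is not in the labels. If they do not, their spread, which is all that the p-values measure, is technical.

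ERM proteins link actin filaments to the plasma membrane. A FERM domain at the amino end binds membrane proteins and phosphoinositides, and the carboxyl end binds actin. In the resting, closed protein the 2 ends bind each other. Binding to phosphoinositides and phosphorylation of a conserved threonine near the carboxyl end hold the protein open, so that it can reach both membrane and actin. Merlin has the same FERM layout but lacks the usual actin-binding end, acts as a tumour suppressor and feeds into the Hippo kinase cascade, which restrains the coactivators YAP and TAZ. In osteosarcoma, ezrin is known for its part in metastasis.

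The residue changed in T567A and T567D lies in a stretch that the ERM genes share, and its codon with 7 codons on either side is shown for each gene because it is where the constructs differ. Sequences were read 5′ to 3′ on the coding strand from GENCODE M21 transcripts of GRCm38. Capitals mark the codon of that threonine in Ezr and the codon aligned with it in the other genes.
Ezr: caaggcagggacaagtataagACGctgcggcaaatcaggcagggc
Msn: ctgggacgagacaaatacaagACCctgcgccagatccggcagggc
Rdx: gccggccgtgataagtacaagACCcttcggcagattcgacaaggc
Nf2: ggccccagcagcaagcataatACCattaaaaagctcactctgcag
The Ezr window lies at chr17:6739342-6739386 on the minus strand, in exon 13 of 13. The Msn window, around codon 558 of 577, is at chrX:96166551-96166595 on the plus strand in exon 13 of 13. The Rdx window, around codon 564 of 583, is at chr9:52086396-52086440 on the plus strand in exon 14 of 14. Each of the 4 aligned codons encodes threonine. In Msn and in Rdx 14 of the 15 codons of the window encode the same residue as in Ezr, although only 34 and 31 of the 45 bases are equal. The Nf2 window, around codon 577 of 596, crosses an exon boundary and matches Ezr in 2 of 15 residues and 20 of 45 bases.

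Over the whole coding sequence, Ezr had 73.8% of aligned residues in common with Msn, 76.3% with Rdx and 46.8% with Nf2. Within the first 300 codons, which hold the FERM domain, these shares were 84.7%, 85.7% and 60.9%. For the last 80 codons of Ezr they were 72.5%, 70% and 25%. At the level of bases, Ezr and Msn agreed at 73.1% and Ezr and Rdx at 69.6% of aligned coding positions. No run of 50 bases was shared between the longest coding transcripts of any pair of the 4 genes. With any other annotated gene, Ezr shared 0.193% of its 50-base windows and Nf2 0.214%. Msn and Rdx shared none. A gene count cannot separate endogenous Ezr mRNA from that of the vector, and shows neither the edit nor the mutated codon.

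Ezr lies on chromosome 17, 6738041 to 6782784 (minus strand, GRCm38), and its last 4 bases overlap the end of Sytl3 on the opposite strand, which had 0 to 3 counts per library. Msn lies on chromosome X, 96096042 to 96168552, Rdx on chromosome 9, 52047173 to 52088735, and Nf2 on chromosome 11, 4765845 to 4849536 (minus strand). All 4 are protein-coding genes.

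Total counts per library lay between 14679424 and 18230763. The counts of each gene in a library were between 1260 (Ezr, empty vector) and 11534 (Msn, T567D), far above the floor of 3 counts, which equals 0.167 to 0.207 CPM. CPM here is counts per 1e+06 counts of the TMM-scaled library total. Of the osteoblast lineage markers, 6 of 9 were above 1 CPM in every line, with Col1a2 at 2890 to 3530 CPM, Sparc at 905 to 1770 CPM and Runx2 at 32.3 to 42.6 CPM. Col1a1 ranged from 247 CPM to 1830, with the parental cells highest. Spp1 was at 165 to 313 CPM and Alpl at 1.69 to 13.9 CPM. Sp7, Bglap and Ibsp, also on the osteoblast lineage list, did not exceed 0.278 CPM. Of 5 macrophage markers, Csf1r was at 1180 to 1680 CPM, Cd68 at 1.8 to 2.63 CPM and Lyz2 at 0.174 to 2.25 CPM, while Adgre1 was at 0 counts in all 10 libraries and Ptprc in 8 of 10. Epcam was at 0 counts in every library. Summed epithelial markers stayed at or below 0.875 CPM and endothelial ones at or below 2.31 CPM. These are bulk cultures, in which fewer cells with a transcript and less of it per cell cannot be told apart.

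Ezr, the edited gene, was lowest in the empty-vector line and highest in the T567A line. Its CPM were 164.1 and 165.7 for parental cells, 72.4 and 72.88 for the empty vector, 230.4 and 233.5 for wild-type ezrin, 247.7 and 252.8 for T567A, and 204 and 181.5 for T567D. No 2 lines overlapped, which with 2 libraries per line is a description and no test. The edgeR test used below did not tell T567A and wild type apart (adjusted p = 0.17). The empty-vector line thus kept 44% of the parental Ezr mRNA level, while the 3 ezrin-transfected lines stood above the parental cells, at 141%, 152% and 117% of it. The 2 T567D libraries differed from each other more than those of any other line, with a coefficient of variation of 8.3% against 0.46% to 1.4% elsewhere.

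**Figure D1:**
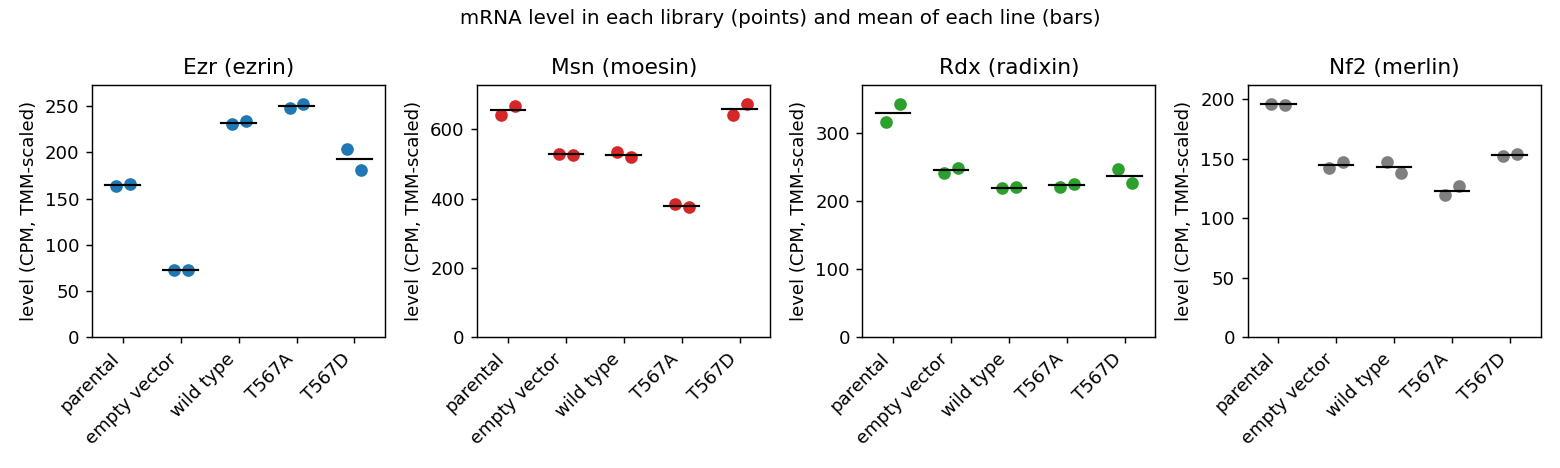
Level of Ezr, Msn, Rdx and Nf2 (CPM, TMM-scaled) in each of the 10 libraries, by line. Points are libraries, horizontal bars the mean of the 2. Ezr is lowest in the empty-vector line (72.4 and 72.88 CPM), Msn and Nf2 are lowest in T567A, and Rdx and Nf2 are highest in the parental cells.

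Calls below rest on the quasi-likelihood test of edgeR, adjusted by Benjamini-Hochberg over all 12595 genes, at an adjusted p under 0.05, and changes are log2 fold changes with their standard error (SE). Tested over the 5 lines at once, each of the 4 genes varied: adjusted p = 1.3e-14 for Ezr, 3.5e-10 for Msn, 9.9e-08 for Rdx and 8.3e-08 for Nf2. This test called 78% of all genes, so a call in it sets no gene apart. Among the 4631 genes with a mean of at least 50 CPM, the highest line mean was 1.34 times the lowest in the median gene. That ratio was 3.45 for Ezr, above 98.8% of these genes, 1.73 for Msn, 1.59 for Nf2 and 1.5 for Rdx. Of the 10 pairs of lines, 9 were called for Ezr, 8 for Msn, 7 for Nf2 and 4 for Rdx, beside 1.34% to 62.1% of all genes called in a pair.

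Between parental cells and the edited line with the empty vector, all 4 genes fell. The change was -1.18 ± 0.066 for Ezr (adjusted p = 2.1e-12), -0.31 ± 0.056 for Msn (adjusted p = 8e-05), -0.43 ± 0.062 for Rdx (adjusted p = 5.3e-06) and -0.43 ± 0.061 for Nf2 (adjusted p = 3.7e-06). In this comparison 54.6% of all tested genes were called (27.4% higher and 27.2% lower), so that being called is common here. Against parental cells, moesin and radixin mRNA were thus not higher in this line with reduced ezrin mRNA. Each of these falls was 1.24-fold or more.

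With wild-type ezrin, Ezr was 3.19-fold higher than with the empty vector (1.67 ± 0.066, adjusted p = 2e-13). The other 3 genes did not pass the test in that comparison, where 15.6% of all genes were called (8.25% higher and 7.36% lower). Msn differed by 0.00 ± 0.056 (adjusted p = 0.98), Nf2 by -0.02 ± 0.062 (adjusted p = 0.85) and Rdx by -0.16 ± 0.062 (adjusted p = 0.094). In the 4 libraries Rdx was at 242 and 249 CPM with the empty vector and at 219.1 and 221.3 with wild-type ezrin. Fitted on these 4 libraries alone, Rdx was called lower (-0.14, adjusted p = 0.024). Over the same empty-vector libraries, which these comparisons share, Ezr was 3.45-fold higher in T567A, where 46.4% of all genes were called (23.7% higher and 22.7% lower), and 2.65-fold higher in T567D, where 17.8% were called (9.43% higher and 8.34% lower). Msn was lower in T567A (-0.47 ± 0.057, adjusted p = 7.1e-07) and higher in T567D (0.32 ± 0.056, adjusted p = 0.00051) than in that line.

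Among the 3 ezrin-transfected lines, Ezr differed by at most 1.3-fold. It was not called between T567A and wild type (0.11 ± 0.062, adjusted p = 0.17). It was lower in T567D than in wild type (-0.27 ± 0.062, adjusted p = 0.032) and higher in T567A than in T567D (0.38 ± 0.062, adjusted p = 5e-05). The T567D call against wild type was not kept by limma on RPKM or without any of 5 single libraries: both wild-type ones, both empty-vector ones and T567D replicate 3, with an adjusted p between 0.056 and 0.36. In order of level, the neighbours T567D and parental cells also differed (0.22 ± 0.063, adjusted p = 0.0046), but not without T567D replicate 1 (0.14, adjusted p = 0.12). The replicate block gave an adjusted p of 0.069 for T567D against wild type.

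**Figure D2:**
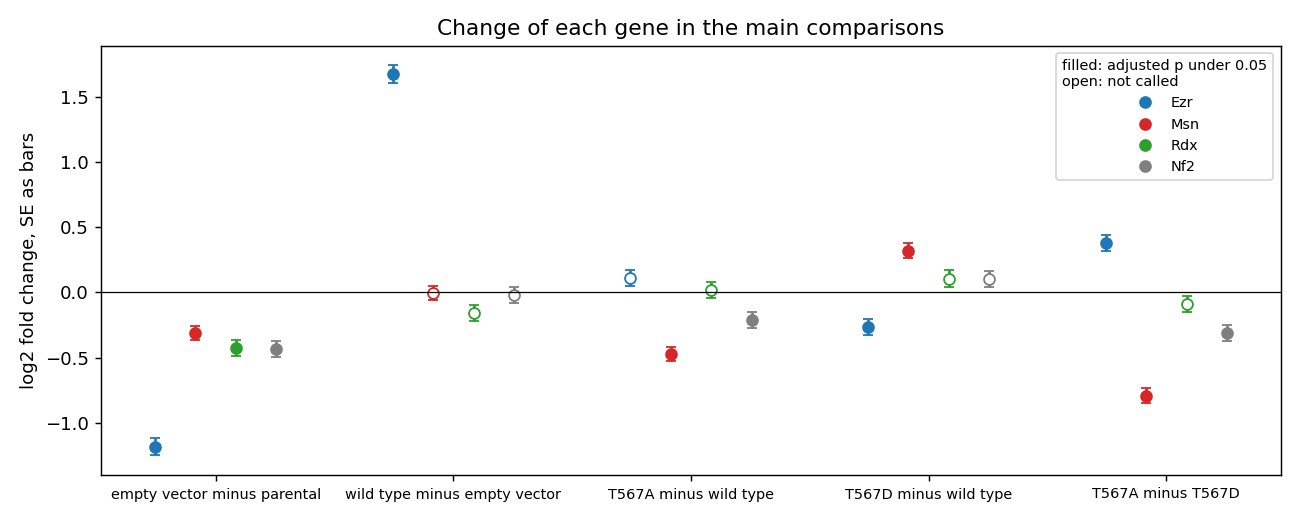
Log2 fold change of each gene in the 5 main comparisons, with bars of 1 SE. Filled points have an adjusted p under 0.05. All 4 genes are below 0 in empty vector minus parental, only Ezr is called in wild type minus empty vector, and Msn is below 0 in T567A and above 0 in T567D, each against wild type.

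Moesin mRNA separated the phosphorylation mutants. Msn was at 642.1 and 666.6 CPM in parental cells, 529.6 and 526.6 with the empty vector, 534.3 and 519.9 with wild-type ezrin, 385 and 375 with T567A, and 641.9 and 674.1 with T567D. The T567A libraries lay below all others, the T567D libraries spanned the parental range, and the empty-vector and wild-type libraries lay between them, overlapping each other. Against wild type, Msn was lower in T567A (-0.47 ± 0.057, adjusted p = 1.2e-06) and higher in T567D (0.32 ± 0.056, adjusted p = 0.0036). These changes share the wild-type libraries. The direct comparison of T567A with T567D gave -0.79 ± 0.057 (adjusted p = 4.1e-10), a level 1.73-fold lower in T567A.

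The background of these calls differed: 39.6% of all genes were called in T567A against wild type (20.4% higher and 19.1% lower) and 44.1% in T567A against T567D (22.5% higher and 21.6% lower), but 1.34% in T567D against wild type. Ezr and Msn were thus 2 of only 169 genes called in the last of these, 1 lower and 1 higher, where 0.524% of genes were lower and 0.818% higher. The count of 169 was 64 without wild-type replicate 1, 46 without wild-type replicate 3, 82 without T567D replicate 1 and 102 without T567D replicate 3. It was 311 and 304 without T567A replicate 2 or 3, although neither is in the lines compared. The Msn call was lost without wild-type replicate 3 (0.30, adjusted p = 0.11) or T567D replicate 3 (0.28, adjusted p = 0.058). In level, Msn in T567D and in parental cells did not differ by the test (0.01 ± 0.056, adjusted p = 0.92), nor did empty vector and wild type.

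Radixin mRNA followed another order, with parental cells apart from all derived lines. Rdx was at 316.4 and 343.5 CPM in parental cells, 242 and 249 with the empty vector, 219.1 and 221.3 with wild-type ezrin, 220.8 and 225.6 with T567A, and 247.5 and 226.8 with T567D. All 8 derived libraries lay below both parental ones, and those of T567D lay within the range of the other derived lines. Relative to parental cells the changes were -0.43 ± 0.062 in empty vector, -0.58 ± 0.062 in wild type (adjusted p = 6.9e-08), -0.56 ± 0.062 in T567A (adjusted p = 9.1e-08) and -0.48 ± 0.062 in T567D (adjusted p = 1.3e-06). These 4 comparisons share the parental libraries. Called genes made up 54.6% of all in the first, 56.2% in wild type (27.7% higher and 28.5% lower), 62.1% in T567A (31.4% higher and 30.7% lower) and 55.4% in T567D (27.1% higher and 28.2% lower). None of the 6 pairs among derived lines was called for Rdx in the edgeR fit of all 10 libraries. At an unadjusted p under 0.05 there were 2, the wild-type line and T567A, each against the empty vector (adjusted p = 0.094 and 0.077). Of all 12595 genes, 3736 and 6667 had such an unadjusted p in these 2 comparisons. T567A and wild type differed by 0.02 ± 0.063 (adjusted p = 0.83), and T567D and wild type by 0.11 ± 0.062 (adjusted p = 0.58).

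Merlin mRNA combined both patterns, being highest in parental cells and lowest in T567A. Nf2 was at 196.4 and 195.1 CPM in parental cells, 142.4 and 147.5 with the empty vector, 147.5 and 138 with wild-type ezrin, 119.6 and 127.2 with T567A, and 152.3 and 154 with T567D. The T567A libraries lay below all others, and the empty-vector and wild-type libraries overlapped. In T567A, Nf2 was lower than in wild type (-0.21 ± 0.062, adjusted p = 0.011), in the empty vector (-0.23 ± 0.062, adjusted p = 0.0045) and in T567D (-0.31 ± 0.062, adjusted p = 0.00039). T567D and wild type were not called (0.10 ± 0.062, adjusted p = 0.6). The call against wild type was lost without wild-type replicate 1 (-0.16, adjusted p = 0.15) or T567A replicate 2 (-0.16, adjusted p = 0.067), and with the replicate block (-0.16, adjusted p = 0.17). Against the empty vector it was lost without empty-vector replicate 3 (-0.21, adjusted p = 0.052). The T567A libraries had 1.44% and 1.9% of their counts in mitochondrially encoded genes against 0.844% to 1.33% in the others, and the part of this in the lower Msn and Nf2 of T567A was not tested.

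Across the 10 libraries, the levels of Rdx and Nf2 had a Pearson correlation of 0.893, those of Msn and Nf2 0.825 and those of Msn and Rdx 0.566. Those of Ezr with the other 3 lay between -0.241 and -0.2. These are descriptions over 5 lines of 2 libraries, which are not 10 independent points.

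Levels of different genes can be compared only per length, for which the deposited RPKM (reads scaled by gene length and by library size) was used. In parental cells Msn was at 94.2 ± 2.6 RPKM, Rdx at 63.5 ± 3.7, Ezr at 45.7 ± 0.35 and Nf2 at 26.1 ± 0.11 (SD, n = 2). With the empty vector the RPKM were 78.3 ± 0.28 for Msn, 48.7 ± 1 for Rdx, 20.7 ± 0.1 for Ezr and 19.9 ± 0.5 for Nf2. Ezr and Nf2 were thus nearly level on this scale. Per kilobase of the longest coding transcript they were not, with Ezr at 23 ± 0.11 CPM and Nf2 at 30.7 ± 0.76. In all 3 ezrin-transfected lines Ezr stood above Rdx, at 66.5 ± 0.58 against 43.9 ± 0.29 RPKM in wild type and 55.3 ± 4.7 against 47.3 ± 3 in T567D. In T567A Ezr, at 70.2 ± 1.6 RPKM, was above both Msn at 55.5 ± 0.58 and Rdx at 43.5 ± 1.

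Summed over Ezr, Msn and Rdx, ERM mRNA was 204 ± 6.6 RPKM in parental cells, 148 ± 0.84 with the empty vector, 189 ± 0.68 with wild type, 169 ± 2 with T567A and 201 ± 4.7 with T567D. The empty-vector total was thus 72.6% of the parental one, and the T567A total 83.2%. Ezr made up 22.5% of this total in parental cells, 14% with the empty vector, 35.2% with wild type, 41.5% with T567A and 27.5% with T567D. Msn made up 46.3%, 53%, 41.6%, 32.8% and 48.9% in the same order. Its share was thus largest in the empty-vector line although its level there was below the parental one.

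**Figure D3:**
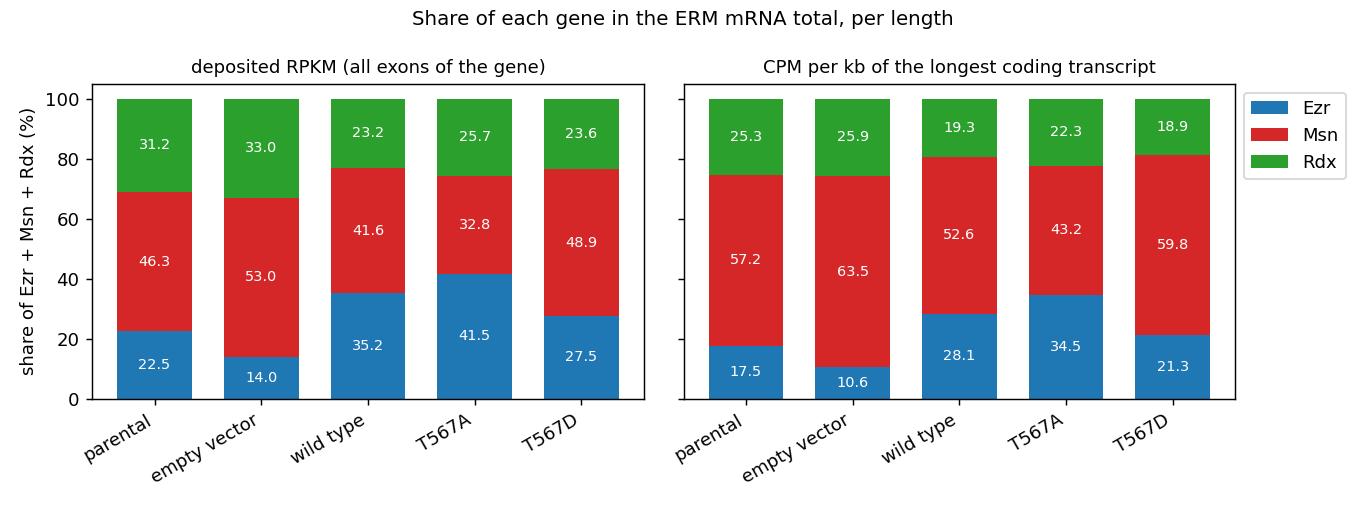
Share of Ezr, Msn and Rdx in their summed mRNA level, per line (mean of 2 libraries, %), from the deposited RPKM on the left and from CPM per kilobase of the longest coding transcript on the right. Ezr holds the smallest share with the empty vector (14% and 10.6%) and the largest in T567A (41.5% and 34.5%), where it exceeds Msn on the left scale only.

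The order of Ezr and Msn in T567A depended on the length used. The RPKM values imply a length for Msn 1.923 times that of Ezr, which equals the ratio of all annotated exon bases (6327 against 3290). The longest coding transcripts are 3842 and 3164 bases. Per kilobase of these, Msn in T567A was at 98.9 ± 1.8 CPM and Ezr at 79.1 ± 1.1, and Msn exceeded Ezr in every line. On that scale, chosen after seeing the data, Ezr made up 34.5% of the total in T567A and 10.6% with the empty vector. Both scales use lengths of the annotated gene, and the length of the vector mRNA is not known here. Its part in the Ezr levels per length and Ezr shares of the ezrin-transfected lines was not tested.

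The neighbourhood of the genes on their chromosomes was examined through the 5 tested protein-coding genes on either side. In empty vector against parental, 7 of the 10 neighbours of Msn were lower and 2 higher, with a median of -0.87. Efnb1 (-1.27), Zc3h12b (-1.13), Las1l (-1.07) and Yipf6 (-1.03) were called over 2-fold lower. Msn itself, at -0.31, lay above most of them. Around Rdx, 5 of 10 were lower and 1 higher, with a median of -0.33, 4833427G06Rik at -1.42 and Arhgap20 at 2.53. The 10 neighbours of Nf2 had 5 lower and 2 higher with a median of -0.15, and Nipsnap1 at -1.21. Around Ezr, 5 were higher and 1 lower, with a median of 0.11. The 5 higher ones are all those on the side of lower coordinates, 4 of which are named as Dynlt1 copies, and how reads were divided among these was not tested. With 10 genes on either side of Ezr, 9 were higher and 2 lower, and the median was -0.03.

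Medians over whole chromosomes were computed after these values were seen. Of 359 tested genes on chromosome X, 81.3% were called lower and 6.69% higher in empty vector against parental, with a median of -0.78, against 0 over all tested genes. This was the lowest median of 20 chromosomes. Chromosome 9, which carries Rdx, had the next lowest, at -0.27, with 55.6% of 644 genes lower. Chromosomes 11 and 17 had medians of 0.00. The same 2 chromosomes had the lowest medians in the other derived lines against parental cells, at -0.59 to -0.69 for X and -0.24 to -0.32 for chromosome 9. In the empty-vector line Msn stood above 83% of the tested genes of its chromosome, Rdx above 32.9%, Nf2 above 14.5% and Ezr above 3.63%. The part of these chromosome-wide shifts in the lower Msn and Rdx of derived lines was not tested. Chromosome X also had the highest median of 20 chromosomes in T567D against wild type (0.10) and against the empty vector (0.18), and a median of 0.05 in T567A against wild type. In T567D against wild type all 10 neighbours of Msn had a change above 0, with a median of 0.30 beside 0.32 for Msn, and 1 of them, Las1l, was called (0.32, adjusted p = 0.037). Of 20 neighbours, 19 were above 0, with a median of 0.28. In T567A against wild type the 10 neighbours had a median of 0.25, with 2 called higher and 0 lower, and Msn was at -0.47. Over 20 neighbours that median was 0.08, with 2 called higher and 2 lower, and 8 of the 20 changed in the direction of Msn. The part of the surrounding shift in the higher Msn of T567D was not tested.

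Genes whose level was most like that of each member were found by Pearson correlation of log2 CPM over the 10 libraries, among 8945 genes with a mean of at least 10 CPM. For Ezr these were Rhod (0.97), Zfp251 (0.966) and Fhod3 (0.956). Fhod3, a formin gene, was at 12.5 ± 0.042 CPM with the empty vector and 16.5 to 19.8 CPM in the other lines. For Msn they were Flna (0.987), Lrp1 (0.976) and Ncam1 (0.975). Flna, which encodes the actin cross-linker filamin A and also lies on chromosome X, was at 618 ± 22 CPM in T567A, 832 ± 28 in wild type and 1070 ± 1.2 in T567D. Ncam1, an adhesion molecule gene, ranged from 71.9 ± 0.15 CPM in parental cells to 13 ± 1.2 in T567A. For Rdx they were Rbm7 (0.983), Tcf12 (0.983) and Tmpo (0.982), and both Rbm7 and Tcf12 lie on chromosome 9, 3.56 and 19.8 megabases from Rdx. For Nf2 they were Runx3 (0.992), Zfp469 (0.991) and Sidt2 (0.989), with Runx3, a transcription factor gene, at 57.5 ± 2.2 CPM in parental cells and 14.1 ± 0.43 in T567A. Ncam1 and Sidt2 lie on chromosome 9 too, which carries neither Msn nor Nf2. On log2(RPKM + 1), Ncam1 moved to rank 11 for Msn and Runx3 to rank 9 for Nf2.

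The genes around these proteins were described through 5 lists. Of the scaffolds and membrane partners of ERM proteins, 24 of 31 were tested. Against parental cells, the empty-vector line had 11 higher and 2 lower (54.2% called against 54.6% of all genes), with a median of 0.16. The chloride channel gene Cftr was at 7.49 ± 0.2 CPM against 0.204 ± 0.29 (5.15 ± 0.36, adjusted p = 1.1e-10), and the adhesion receptor gene Vcam1 at 309 ± 8.7 against 153 ± 0.33 (1.01 ± 0.062). Slc9a3r1, which encodes the scaffold NHERF1, was lower, at 33.5 ± 1.8 against 40.3 ± 0.26 CPM (-0.26 ± 0.094, adjusted p = 0.022). With wild-type ezrin it rose again to 43.5 ± 3.5 CPM (0.38 ± 0.093, adjusted p = 0.0082). In the same comparison the sialomucin gene Podxl rose to 9.63 ± 0.37 from 3.26 ± 0.35 CPM (1.56 ± 0.16), and Spn, which encodes the sialomucin CD43, fell to 19.3 ± 2.4 from 28.9 ± 2.4 (-0.58 ± 0.099). There 6 partners were higher and 1 lower (29.2% called against 15.6%), a count of 7 that was 3 without any of the 4 libraries of these lines.

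In T567A against wild type 9 partners were higher and 8 lower (70.8% called against 39.6% of all genes). Vcam1 was at 585 ± 22 CPM against 320 ± 6.9 (0.87 ± 0.06) and the death receptor gene Fas at 36.1 ± 4.5 against 20.3 ± 1 (0.82 ± 0.096). Pdpn, which encodes the ERM-binding membrane protein podoplanin, was at 26 ± 0.81 CPM against 58.5 ± 0.29 (-1.17 ± 0.08, adjusted p = 2.5e-10), and Cftr at 5.85 ± 0.8 against 10.3 ± 0.11 (-0.83 ± 0.17). In T567A against T567D 9 were higher and 7 lower (66.7% called against 44.1% of all genes), among them Vcam1 (0.91) and Fas (0.79) higher and Cftr (-1.26) and Pdpn (-1.12) lower.

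Of the kinases, phosphatases and lipid enzymes that act on ERM proteins, 28 of 33 were tested. In empty vector against parental 11 were higher and 2 lower (46.4% called against 54.6% of all genes), led by the kinase gene Cdk5 (67.9 ± 2.2 CPM against 26 ± 1.5, 1.38 ± 0.078) and the phosphatase gene Ppp1cb (435 ± 3.5 against 195 ± 7.1, 1.15 ± 0.071). In T567A against wild type 2 were higher and 10 lower (42.9% called against 39.6% of all genes), a count of 12 that was 6 (5 lower) without wild-type replicate 1 and with the replicate block. Prkci, an atypical protein kinase C gene, was at 405 ± 32 CPM against 278 ± 3.3 (0.54 ± 0.061). Cdk5 was at 39 ± 2.8 against 65.7 ± 2 (-0.75 ± 0.076), and Pip5k1c, which makes the phosphoinositide that ERM proteins bind, at 124 ± 8 against 194 ± 8.4 (-0.64 ± 0.069). Rock1, a kinase gene, was at 63.7 ± 11 against 52.9 ± 0.37 CPM (0.26 ± 0.1, adjusted p = 0.045). With wild-type ezrin 3 were higher and 3 lower than with the empty vector (21.4% called against 15.6% of all genes), Prkca (0.44 ± 0.062) and Ppp1ca (0.35 ± 0.062) leading the rise, a count of 6 that was 2 or 3 without any of the 4 libraries of these lines.

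Of the Hippo genes around merlin, 28 of 32 were tested. In the empty-vector line, where Nf2 was lower, 5 were higher and 15 lower than in parental cells (71.4% called against 54.6%), with a median of -0.21 against 0 over all genes. Amotl2, an angiomotin that holds YAP at junctions, was at 399 ± 13 CPM against 802 ± 23 (-1.01 ± 0.059, adjusted p = 5.2e-12), and Tead3, a YAP partner, at 4.75 ± 0.0035 against 11.1 ± 0.83 (-1.23 ± 0.16). Wwtr1, which encodes TAZ, was higher, at 118 ± 4.1 CPM against 63.6 ± 0.17 (0.89 ± 0.078). In T567A against wild type 10 were higher and 4 lower (50% called against 39.6%), a count of 14 that was 9 without wild-type replicate 1. Wwc1, which encodes the merlin partner KIBRA, was at 15.9 ± 2.3 CPM against 37.2 ± 1.2 (-1.23 ± 0.094, adjusted p = 1.2e-09) and the giant cadherin gene Fat1 at 292 ± 33 against 460 ± 0.52 (-0.66 ± 0.11). Lats2, a kinase that phosphorylates YAP, was at 215 ± 4.5 against 158 ± 7.1 (0.44 ± 0.067). With wild-type ezrin Fat1 rose from 300 ± 38 CPM in the empty-vector line (0.62 ± 0.11) and Lats2 fell (-0.21 ± 0.067, adjusted p = 0.036). These were the only 2 Hippo genes called there, and the count was 1 without any of 6 single libraries: those of the parental, empty-vector and wild-type lines.

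Among 17 tested YAP target genes, 4 were higher and 9 lower in empty vector against parental (76.5% called against 54.6% of all genes), with Dlc1 at 27.9 ± 4.1 CPM against 89.6 ± 4 (-1.68 ± 0.086) and F3 at 7.8 ± 0.075 against 0.32 ± 0.042 (4.58 ± 0.26). In T567A against wild type 8 were higher and 5 lower (76.5% called against 39.6%). The best known target Ccn2 was at 113 ± 7.8 CPM in T567A, 167 ± 24 in wild type and 209 ± 15 in T567D, and was called lower in T567A against both (-0.57 ± 0.084 and -0.89 ± 0.083). Ankrd1, another target, went the other way, at 745 ± 37 in T567A against 538 ± 2.4 in T567D (0.47 ± 0.058). Lists overlap in part: Amotl2, Lats2, Wwc1, Ptpn14 and Ajuba stand in both the Hippo and the YAP target list.

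Of the other genes with a FERM domain, 34 of 47 were tested, with 15 higher and 12 lower in empty vector against parental (79.4% called against 54.6% of all genes). The tyrosine kinase gene Ptk2b fell to 8.38 ± 0.74 CPM from 29.9 ± 3.5 (-1.83 ± 0.11) and Epb41l5 to 2.49 ± 0.89 from 10.3 ± 1.2 (-2.05 ± 0.19), while Plekhh1 rose to 9.92 ± 0.61 from 2.77 ± 0.61 (1.84 ± 0.17). With wild-type ezrin Ptk2b was at 14.6 ± 0.054 CPM, above the empty vector (0.80 ± 0.12). In T567A against wild type 8 were higher and 8 lower (47.1% called against 39.6% of all genes), a count of 16 that was 10 without wild-type replicate 1, with the phosphatase gene Ptpn13 at 57 ± 2.2 CPM against 28.6 ± 0.58 (0.99 ± 0.097). Myo7a, an unconventional myosin gene, was at 1.95 ± 0.17 CPM in T567A, 5.46 ± 1.3 in wild type and 10.1 ± 1.6 in T567D, which gave -1.48 ± 0.27 and 0.89 ± 0.19 (adjusted p = 0.027) against wild type. The T567D change was 1 of 34, and 0 were called without wild-type replicate 3 or T567D replicate 3, while 2 were called without T567A replicate 2 or 3.

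In T567D against wild type, edgeR called 0 of 24 partners, 0 of 28 kinases and other enzymes, 0 of 28 Hippo genes and 0 of 17 YAP targets. At an unadjusted p under 0.05 it had 7, 4, 1 and 2 of them, beside 1344 of all 12595 genes. DESeq2 called 0, 0, 0 and 1, and limma on RPKM 0 in each. The partners, the enzymes and the Hippo list each gained 1 call without T567A replicate 2 or 3, and the YAP targets 1 without either of these or wild-type replicate 1. With no filter on low counts, 2 of 28 partners, 1 enzyme, 0 Hippo genes and 1 YAP target were called. Over all genes 1.34% were called in this comparison, so that counts at or near 0 do not set these lists apart.

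**Figure D4:**
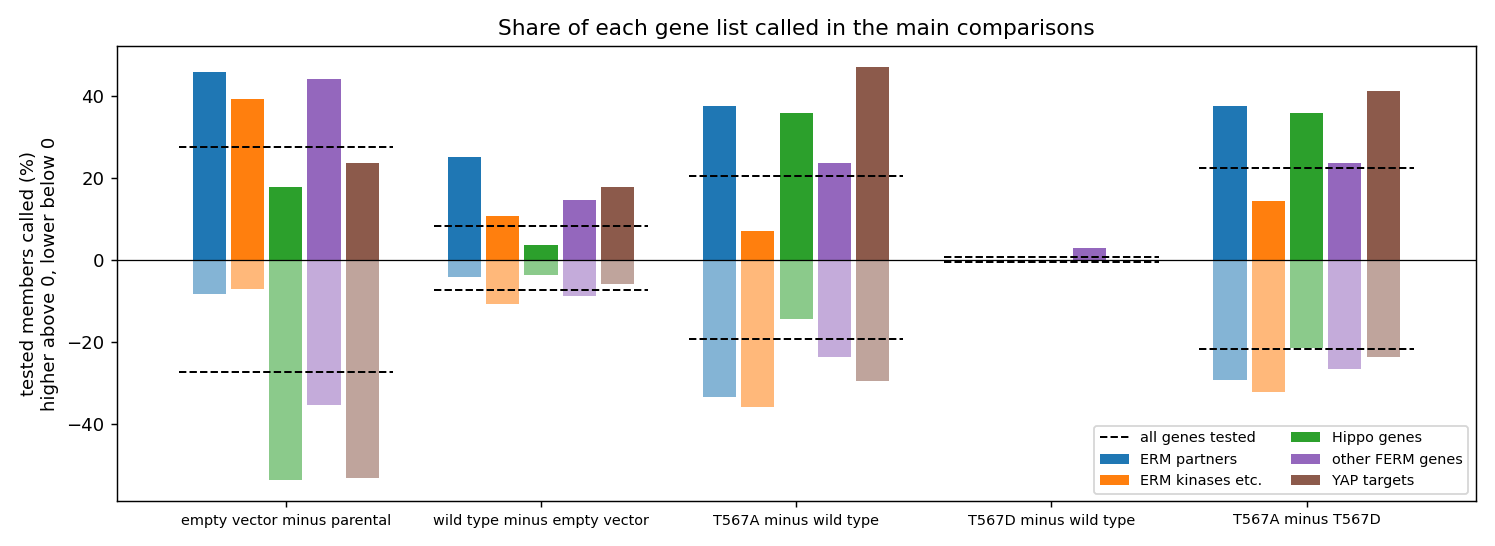
Share of the tested members of each list called higher (above 0) or lower (below 0) in the 5 main comparisons, in percent. Dashed lines give the shares over all tested genes. In the empty-vector line 15 of 28 Hippo genes and 9 of 17 YAP targets are lower, 10 of 28 ERM kinases and related enzymes are lower and 2 higher in T567A against wild type, and T567D against wild type is nearly empty, as it is over all genes (1.34%).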

How the data were processed

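Poly-A RNA was sequenced from strand-marked (dUTP) DNBSEQ libraries, per the labels' protocols, with GRCm38 as the genome build, which comes from the submitters' processing notes. The authors deposited raw counts per gene and RPKM values for each library, and the sources used here give no aligner, counter, annotation or strand setting. The test was edgeR 4.0.16 under R 4.3.3 on the counts (filterByExpr with a minimum count of 10 and total of 15, TMM scaling, 1 robust quasi-likelihood fit of 10 libraries, 5 residual degrees of freedom). It was also run on counts simulated from its own fitted dispersions, which cannot show whether that model holds for these libraries. No 2 libraries of a line agreed within sampling noise, with a chi-square per degree of freedom of 2.44 to 8.45. The alternatives used DESeq2 1.42.0, scaling by RLE or upper quartile, no filter, a replicate block, only the 2 lines compared, limma 3.58.1 on log2(RPKM + 1) and log2(RPKM + 0.1), and each library left out. Sequences and positions come from GENCODE M21, with coding sequences aligned in Biopython 1.88 and figures drawn in matplotlib 3.10.9. The members and lists were chosen with earlier results of these data known. Named list genes are up to 2 called members with the largest rise and 2 with the largest fall per list and main comparison, if the libraries do not overlap and the higher line has 5 CPM or more. Likeness uses genes of at least 10 CPM. Floors cover counting error only.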

Additional observations from a re-analysis of the deposited data

How the results depend on the processing

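The test over the 5 lines kept its call for all 4 genes under every alternative run, as did the changes of all 4 between empty vector and parental cells and those of Ezr and Msn between T567A and T567D. Some differences that were not called changed sign. Msn in wild type minus empty vector, at 0.00 in the main analysis, was 0.00692 with RLE scaling, 0.00691 with DESeq2, 0.0311 with upper-quartile scaling, 0.00194 with no filter, 0.0232 with the replicate block, 0.0101 on the 2 lines alone and 0.00474 and 0.00479 with limma at pseudocounts of 1 and 0.1. Nf2 there was 0.012 with upper-quartile scaling. Rdx in T567A minus wild type was -0.0157 with upper-quartile scaling, -0.000518 with no filter and -0.0115 and -0.0118 with limma. Rdx in wild type minus empty vector gained a call on the 2 lines alone (-0.14). Ezr in T567D minus wild type lost its call with the replicate block (-0.27) and with limma at pseudocounts of 1 (-0.26) and 0.1 (-0.27), and Nf2 in T567A minus wild type with the replicate block (-0.16).

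Leaving out single libraries, the change from empty vector to wild type lay between -0.0226 and 0.0168 for Msn and between -0.0708 and 0.0253 for Nf2. In T567A minus wild type it lay between -0.00138 and 0.0374 for Rdx and between -0.26 and -0.16 for Nf2. In T567D minus wild type it lay between -0.354 and -0.185 for Ezr and between 0.284 and 0.355 for Msn. Msn in T567D minus parental (-0.0278 to 0.0428) and Rdx in T567D minus empty vector (-0.114 to 0.0117) crossed 0 without being called.

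The labels do not say what a replicate number means, and each pair of lines shares at most 2 numbers. Lines with the same 2 numbers showed no common shift, with correlations of their deviations between -0.0995 and -0.00742. Whether the numbers mark a shared culture or batch cannot be told from this. The block changed no other call among the 4 genes in the main comparisons. Genes called in wild type minus empty vector numbered 1966, but 1301 by DESeq2, 1082 with the block, 3029 on the 2 lines alone and 840 to 1014 without a library of these lines. In T567D minus wild type the 169 became 300 with no filter and 89 or 63 with limma. In T567D minus empty vector 2239 became 1428 by DESeq2 and 1142 with the block. The levels of the 4 genes rest on at least 1260 counts per library, but on only 2 libraries per line, which limits the comparisons.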
